A study of Homo sapiens with 4 samples.

Results

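Cytochromes P450 are heme enzymes that insert 1 oxygen atom into drugs, steroids, fatty acids, bile acid precursors and vitamins. The genes examined here are those of the deposited count table whose symbol is CYP followed by a family number, a subfamily letter and a gene number, without the sterol demethylase CYP51A1. There were 55 such genes among the 59652 genes of the table, and all 55 are protein-coding in GENCODE release 44. RNA was sequenced from wild-type Huh7 and PLC cells, a pair of established lines of human hepatocellular carcinoma, after 48 h in medium with 5 mM (low) or 25 mM (high) glucose and 10% serum. Each line at each concentration gave 1 library, so no difference between libraries has a replicate check.

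Most P450 enzymes sit in the endoplasmic reticulum and take electrons from the reductase POR, while a mitochondrial group takes them from the ferredoxin FDX1. The liver is the main site of their expression. Enzymes of families 1 to 3 clear drugs and pollutants, and their genes are switched on by receptors such as AHR, PXR (NR1I2) and CAR (NR1I3). Family 4 oxidises fatty acids and eicosanoids, and further members make or break bile acids, steroid hormones, retinoic acid and vitamin D. Cultured hepatoma lines are known to hold only a part of the P450 set of hepatocytes.

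Library totals at 5 mM and 25 mM glucose were 21376239 and 30085303 reads counted on genes in Huh7 cells. In PLC cells they were 30279716 and 16049686, so equal reads in the PLC libraries are not equal levels. The 55 P450 genes held 0.0529% and 0.0508% of the reads of Huh7 cells at 5 mM and 25 mM glucose, and 0.0648% and 0.0408% in PLC cells. Of 9 hepatocyte markers, all had more than 3 reads in both Huh7 libraries, and their summed level was 3949 and 3972 FPKM, against 425 and 606 FPKM in PLC cells. The transthyretin gene TTR had 4 and 0 reads in PLC. The leukocyte markers PTPRC and CD68 had 5 reads or fewer in every library. Summed FPKM of the cholangiocyte markers KRT7 and KRT19 was 30.1 and 23.9 in Huh7 against 0.0554 and 0.0467 in PLC. That of the stromal markers COL1A1, COL1A2 and DCN was 0.376 and 0.442 against 0.0467 and 0.0385. For the endothelial markers PECAM1 and VWF it was 2.37 and 2.55 against 0.122 and 0.290. In Huh7 these sums came mostly from KRT19, COL1A2 and PECAM1, and the other markers did not all follow them. KRT7 had 0 and 0 reads in Huh7 against 5 and 3 in PLC. DCN had 0 and 4 reads against 14 and 8, and VWF had 0 and 0 against 2 and 0. The part of what these markers stand for in the differences between the lines was not tested. Levels are given as FPKM, the reads of a gene scaled to its length and to the library total. Values of a line are in the order 5 mM, 25 mM. The floor of 3 reads stands for between 0.0991 and 0.187 CPM, which are reads scaled to the library total alone.

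A gene was taken as kept by a line when its FPKM was over 0.5 in both libraries of the line. Huh7 cells kept 17 of the 55 P450 genes (30.9%) and PLC cells kept 14 (25.5%). The same threshold was passed by 58.4% of 19159 protein-coding genes in Huh7 cells and by 57.4% in PLC cells. Both lines kept 11 genes: CYP1A1, CYP2C18, CYP2D6, CYP2R1, CYP2S1, CYP3A5, CYP4F3, CYP4F12, CYP4V2, CYP19A1 and CYP20A1. Only Huh7 cells kept CYP2A6, CYP2B6, CYP2J2, CYP26B1, CYP27A1 and CYP39A1, and only PLC cells kept CYP4F11, CYP24A1 and CYP27B1 by this threshold. Neither line kept the other 35 genes. In a single library, CYP2D7 passed in Huh7, and CYP2A6, CYP2U1 and CYP26B1 passed in PLC.

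**Figure D1:**
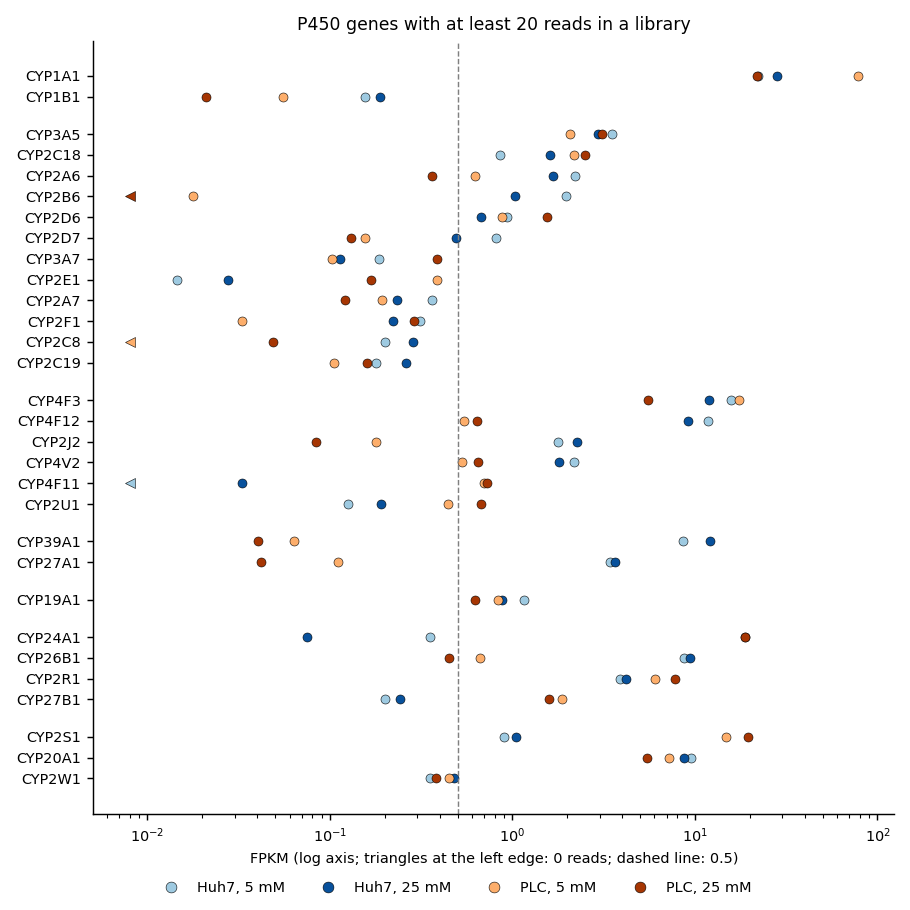
FPKM on a log axis of 30 P450 genes with at least 20 reads in a library, grouped by role, with 1 point per library (blue, Huh7 cells; orange to brown, PLC cells; light, 5 mM; dark, 25 mM glucose; triangles, 0 reads; dashed line, 0.5 FPKM). CYP1A1 has the highest points, from 21.8 to 78.2 FPKM, and CYP39A1, CYP27A1, CYP2B6, CYP24A1 and CYP2S1 separate the lines.

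Several enzymes that define the adult hepatocyte were at or near the floor. CYP7A1, the rate-limiting enzyme of the classic route to bile acids, had 0 reads in all 4 libraries, as did CYP2A13, CYP4B1, CYP11B1 and CYP11B2. CYP3A4, the chief drug-metabolising P450 of adult liver, had 6 and 19 reads in Huh7 against 9 and 6 in PLC, or 0.187 FPKM at most. CYP8B1, which sets the cholic acid share of bile, had 10 reads at most. CYP1A2, a caffeine-metabolising enzyme of adult liver, had 6 and 18 reads in Huh7 and 0 in both PLC libraries. In all, 11 members had 3 reads or fewer in every library, namely the 5 above with CYP4A11, CYP4F8, CYP4F22, CYP4X1, CYP11A1 and CYP21A2. A further 13 reached between 4 and 19 reads in their highest library. The highest count was 19 for CYP3A4, 18 for CYP1A2, 17 for CYP26C1, 15 for CYP46A1, 14 for CYP7B1 and 12 for CYP27C1. It was 10 for CYP3A43 and CYP8B1, 8 for CYP4A22 and CYP26A1, 7 for CYP4F2, 5 for CYP4Z1 and 4 for CYP17A1. At this depth such values do not show that a gene is silent.

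Summed over the 55 genes, the P450 level was 104 and 106 FPKM in Huh7 against 156 and 95.1 FPKM in PLC at 5 mM and 25 mM. Without CYP1A1 the sums were 82.1, 77.4, 78.2 and 73.3 FPKM in the same order. CYP1A1 ranked first in every library, with 21.3% and 26.7% of the sum in Huh7 cells. In PLC it held 78.2 of 156 FPKM at 5 mM and 22.9% of the sum at 25 mM. The genes behind it differed. In Huh7 cells at 5 mM the next ranks were CYP4F3 (15.2% of the sum), CYP4F12 (11.3%) and CYP20A1 (9.11%), while in PLC cells they were CYP24A1 (12.1%), CYP4F3 (11.1%) and CYP2S1 (9.44%). The bile acid and cholesterol enzymes together made up 11.7% and 15.1% of the sum in Huh7 and 0.198% and 0.259% in PLC cells. The vitamin D and retinoid enzymes made up 12.8% and 13.2% in Huh7 and 17.7% and 30.6% in PLC cells.

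**Figure D2:**
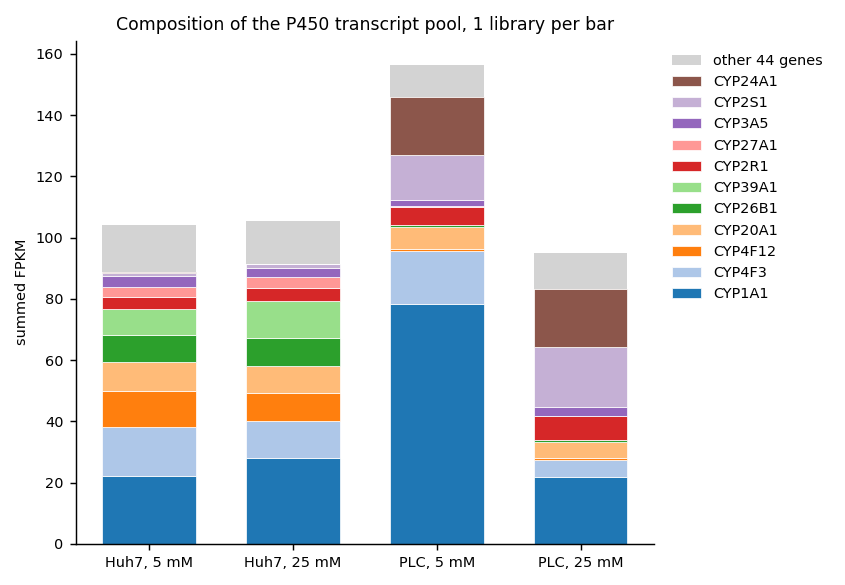
Summed FPKM of the 55 P450 genes in each library, 1 bar per library, with the share of 11 genes in colour and the other 44 genes in grey. The bars reach 104, 106, 156 and 95.1 FPKM, and the tallest bar is that of PLC cells at 5 mM glucose, where CYP1A1 alone stands at 78.2 FPKM.

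The first comparison asked which P450 genes separate the lines, and used the quasi-likelihood test of edgeR on all 4 libraries with glucose as a block. The pair of glucose levels is the only repeat of the contrast and not a pair of replicate cultures, and 1 residual degree of freedom was left. Of the 55 members, 35 had enough reads to be tested, and 20 did not pass the filter on low counts. After Benjamini-Hochberg adjustment over 23217 genes, 10 members were higher in Huh7 and 7 in PLC cells. Among all genes tested, 21.8% were higher in Huh7 and 21.1% in PLC cells, so the members' counts lie near what all genes gave. In bulk RNA, fewer cells with a transcript and less of it per cell cannot be told apart. Differences between the lines are given as log2 fold changes of Huh7 over PLC, ± the standard error. A gene with reads in a single line passes the filter through that line and has to differ. Of the 17 called members, 11 had more than 3 reads in all 4 libraries. The others were CYP2B6, CYP2C8, CYP2E1, CYP4F11, CYP27A1 and CYP39A1. Each of these passed the filter through a single line, so its call adds nothing to its reads. With DESeq2 in place of edgeR 12 members were called, and with at least 10 counts required in every library 8 were.

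**Figure D3:**
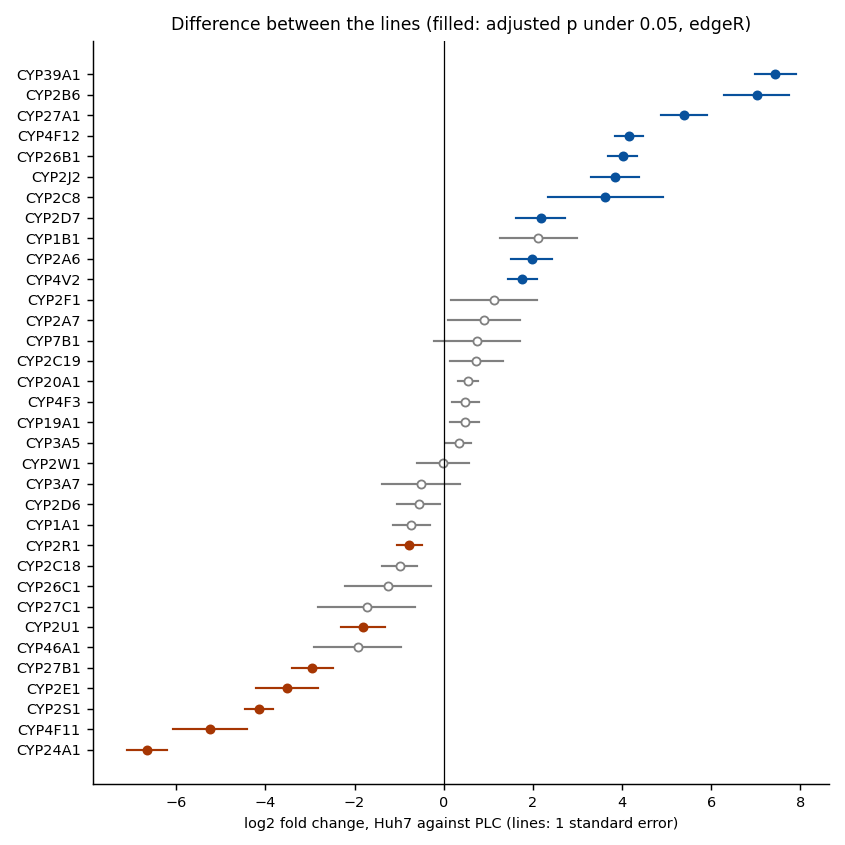
Log2 fold change of Huh7 against PLC cells for 34 of the 35 P450 genes tested, with lines of 1 standard error; filled points passed an adjusted p-value of 0.05 in edgeR's test, blue higher in Huh7 cells and brown higher in PLC cells. CYP39A1 lies farthest to the right at 7.44 and CYP24A1 farthest to the left at -6.66.

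Of the 6 enzymes of bile acid and cholesterol turnover, CYP27A1 and CYP39A1 were kept by Huh7 cells, and none was kept by PLC cells. CYP39A1, which hydroxylates 24-hydroxycholesterol on the way to bile acids, lies on chromosome 6 of hg38 (46549580 to 46652830). It had 572 and 1136 reads in Huh7 cells (8.60 and 12.1 FPKM) and 6 and 2 reads in PLC cells. The lines differed by 7.44 ± 0.46 in edgeR's fit. CYP39A1 passed the filter through its Huh7 reads alone, so its call adds nothing to the reads. At 5 mM, where PLC cells had 6 reads, the ratio of the lines was 135 (95% counting interval 61.7 to 369.5). CYP27A1, the mitochondrial sterol 27-hydroxylase, had 219 and 328 reads in Huh7 against 10 and 2 in PLC. The lines differed by 5.39 ± 0.51 in edgeR's fit, and the same limit holds for the call of CYP27A1. For both genes the Huh7 libraries lay far above the PLC libraries at either glucose level. CYP7B1, the oxysterol 7-alpha-hydroxylase, had between 6 and 14 reads in every library and did not pass the test.

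Of the vitamin D and retinoid group, CYP24A1, CYP27B1 and CYP2R1 were called higher in PLC cells. CYP27A1, which was placed in the bile acid and cholesterol group, was higher in Huh7. CYP24A1, which inactivates vitamin D and lies on chromosome 20 (54153446 to 54173986), had 30 and 9 reads in Huh7 against 2285 and 1211 in PLC, where both libraries stood at 18.9 FPKM. The lines differed by -6.66 ± 0.45 (edgeR, adjusted p = 1.03e-07), the largest excess in PLC cells among the members tested. CYP27B1, which makes the active hormone, had 0.199 and 0.243 FPKM in Huh7 against 1.87 and 1.59 in PLC, a difference of -2.95 ± 0.46. CYP2R1, the 25-hydroxylase of vitamin D, had 3.87 and 4.18 FPKM in Huh7 against 6.01 and 7.78 in PLC, a difference of -0.77 ± 0.27. The call of CYP2R1 was lost with DESeq2. The vitamin D receptor gene VDR itself had 0 and 6 reads in Huh7 against 17 and 10 in PLC. CYP26B1, which degrades retinoic acid, was the member of the vitamin D and retinoid group that was higher in Huh7, with 8.75 and 9.36 FPKM in Huh7 against 0.665 and 0.447 in PLC, a difference of 4.01 ± 0.33 (edgeR, adjusted p = 5.90e-07).

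Among the fatty acid enzymes, close neighbours on chromosome 19 differed between the lines. CYP4F3, a hydroxylase of leukotriene B4 and fatty acids at 15640897 to 15662825 of hg38, was kept by both lines, with 15.8 and 12 FPKM in Huh7 against 17.4 and 5.50 in PLC. CYP4F12, at 15673018 to 15697174, had 1284 and 1393 reads in Huh7 cells against 83 and 52 in PLC cells, a difference of 4.15 ± 0.31 (edgeR, adjusted p = 2.77e-07). CYP4F11, at 15912367 to 15934867, had the reverse pattern, with 0 and 4 reads in Huh7 against 85 and 47 in PLC. The lines differed by -5.24 ± 0.83, and at 25 mM the ratio of PLC to Huh7 was 22.0 (8.05 to 84.2). CYP2J2, an epoxygenase of arachidonic acid, had 113 and 202 reads in Huh7 against 16 and 4 in PLC, and its difference of 3.84 ± 0.53 passed the test. CYP4V2, a fatty acid hydroxylase that is mutated in a crystalline retinal dystrophy, had 2.17 and 1.80 FPKM in Huh7 against 0.527 and 0.644 in PLC (1.76 ± 0.32). CYP2U1, a long-chain fatty acid hydroxylase, had 0.126 and 0.191 FPKM in Huh7 against 0.441 and 0.674 in PLC (-1.81 ± 0.49). Both passed the test. CYP2U1 lost its call with DESeq2.

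Of the 16 drug-metabolising enzymes outside the AHR targets, 4 were called higher in Huh7 cells and CYP2E1 in PLC cells. Among all genes tested the shares were 21.8% and 21.1%. CYP2A13, CYP3A4 and CYP3A43 were not tested, and these counts are no result about the group. CYP2B6, a target of CAR, had 157 and 116 reads in Huh7 against 2 and 0 reads in PLC. At 25 mM the ratio of Huh7 to PLC was 20.6 when 3 reads were taken for the PLC library. With the 0 reads counted there, the lower end of the counting interval was 16.5. The difference in edgeR's fit was 7.02 ± 0.73. CYP2A6, which oxidises nicotine, had 2.21 and 1.66 FPKM in Huh7 against 0.624 and 0.364 in PLC, a difference of 1.97 ± 0.46. CYP2C8 had 11 and 22 reads in Huh7 against 0 and 2 in PLC, and CYP2D7 had 67 and 57 against 18 and 8. Both passed edgeR's test as higher in Huh7 cells, and CYP2A6, CYP2C8 and CYP2D7 all lost their calls with DESeq2. CYP2E1, which oxidises ethanol, had 3 and 8 reads in Huh7 against 112 and 26 in PLC, a difference of -3.52 ± 0.70. CYP2B6, CYP2C8 and CYP2E1 passed the filter through a single line, so their calls add nothing to the reads. CYP2S1, an enzyme expressed mainly outside the liver, had 0.897 and 1.04 FPKM in Huh7 against 14.8 and 19.6 in PLC, a difference of -4.14 ± 0.31 (edgeR, adjusted p = 2.52e-07).

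The other members tested did not pass the adjusted threshold. CYP3A5, the family 3 enzyme with the most reads here, had 3.49 and 2.96 FPKM in Huh7 against 2.06 and 3.09 in PLC, so the ranges of the lines overlap. CYP20A1, whose substrate is not known, had 9.50 and 8.75 FPKM in Huh7 against 7.19 and 5.44 in PLC. CYP19A1, the aromatase that makes oestrogens, was the only steroid hormone enzyme kept by either line, with between 0.621 and 1.15 FPKM. CYP2C18 had 0.851 and 1.61 FPKM in Huh7 against 2.17 and 2.51 in PLC (-0.99 ± 0.40; edgeR, adjusted p = 0.0641). CYP2D6, which clears many drugs, had 0.929 and 0.674 FPKM in Huh7 against 0.874 and 1.55 in PLC. A further 6 lay between 0.0208 and 0.476 FPKM. CYP2C19 had 24 and 49 reads in Huh7 against 20 and 16 in PLC. CYP2W1 had 21 and 40 against 38 and 17, CYP2A7 had 20 and 18 against 15 and 5, and CYP2F1 had 20 and 20 against 3 and 14. CYP3A7 had 14 and 12 against 11 and 22, and CYP1B1 had 20 and 34 against 10 and 2. CYP1B1 (2.12 ± 0.86) was called only with limma, as higher in Huh7. CYP1A1 (-0.73 ± 0.41) was called only without the filter on low counts, as higher in PLC.

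Reads of P450 genes can be hard to place, because paralogs lie side by side and are alike, and because some annotated entries overlap. In GENCODE 44 transcripts, 63.1% of the 31-base windows of CYP2D6 and 48.3% of those of CYP2A6 also occur in another gene, mainly CYP2D7 and CYP2A7, and the levels of these genes are uncertain. The share was 42.7% for CYP3A7, most of all with CYP3A7-CYP3A51P, which covers 42.6% of its exon bases on the same strand. It was 40.6% for CYP2C18 and 38.7% for CYP2C19, most of all with the entry ENSG00000276490. AL583836.1 covers 40.3% and 23.4% of their exon bases on the same strand. These overlapping entries of the count table had 2 reads at most. The share was 23.0% for CYP2B6 and 21.9% for CYP4F3, most of all with CYP2B7P and CYP4F2. CYP2E1 shares 22.9% of its exon bases with SYCE1, which had 3 reads at most. How reads in shared bases were counted is not given. Low counts on overlapping entries therefore do not show that the P450 genes lost few reads. The share of windows was 0 for CYP2J2, CYP2R1, CYP2S1, CYP24A1, CYP26B1, CYP27A1 and CYP39A1 and 0.802% for CYP1A1.

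The second question was which P450 genes follow the glucose concentration within a line. For this, the ratio of FPKM at 25 mM to 5 mM was taken after 0.1 was added to both values, for genes that reached 20 reads in either library of the line. A gene was called higher or lower when the ratio was over 1.5 or under 0.67, the limits used in the study. The 95% interval is the exact Clopper-Pearson interval of the read share without the added 0.1. It holds for these libraries and not for the conditions, as it covers nothing but counting error. Adding 0.1 draws the ratio of low genes towards 1, so a ratio may lie near the edge of its interval.

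In Huh7 cells 1 of 28 P450 genes was called higher and 3 lower at 25 mM, against 10.9% and 8.20% of all 19405 genes with as many reads. In PLC cells 3 of 22 were called higher and 4 lower, against 19.8% and 15.1% of 18744 genes. The members' shares lay on either side of the background, and none of these counts is a result about the members. Of the other members with a ratio, the counting interval excluded 1 for 10 of 24 in Huh7 and 7 of 15 in PLC. The share of all genes with such an interval was not counted, so these counts too are no result about the members. The median log2 ratio was -0.02 in Huh7 against 0.13 in PLC for the members, beside 0.05 in either line for all genes with as many reads. Scaling of the libraries by TMM moves every log2 ratio by -0.04 in Huh7 and by -0.12 in PLC. No member was called in the same direction in both lines among the 19 with enough reads in both.

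**Figure D4:**
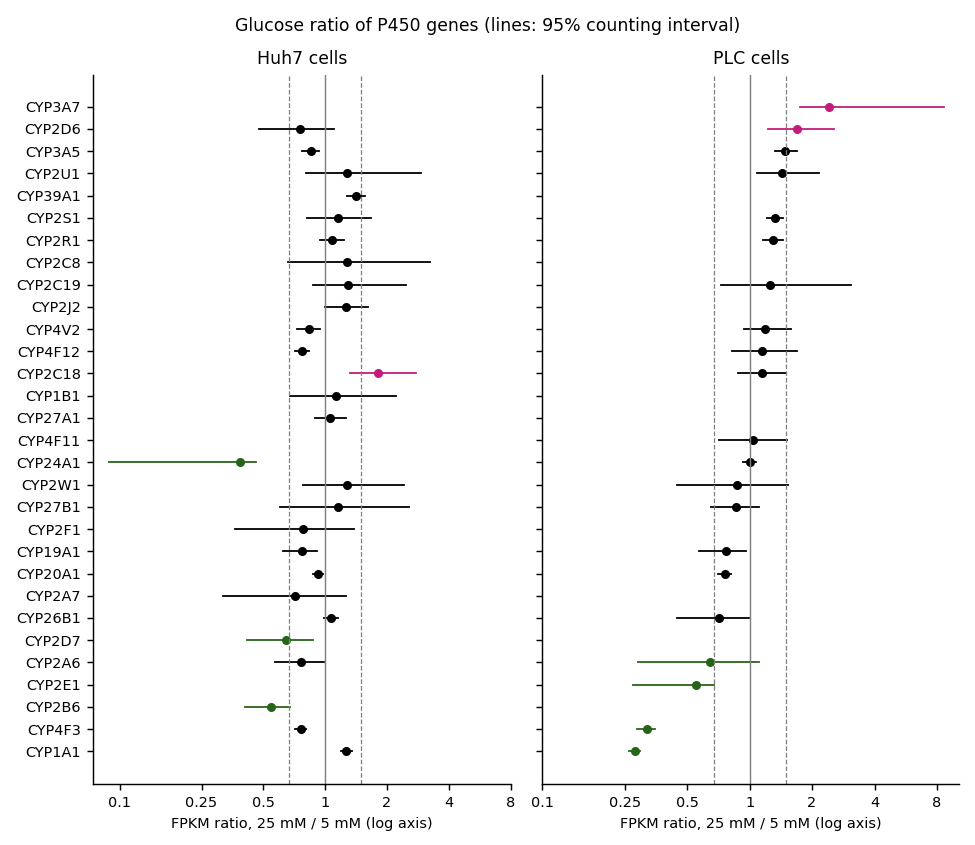
Ratio of FPKM at 25 mM to 5 mM glucose on a log axis for 30 P450 genes that reached 20 reads in either library of the line, with 95% counting intervals; dashed lines mark 0.67 and 1.5, and coloured points lie past them (pink higher, green lower). CYP1A1 and CYP4F3 lie farthest left in PLC cells, at 0.280 and 0.321, while in Huh7 cells they lie at 1.27 and 0.759.

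CYP1A1 had the lowest glucose ratio of the members in PLC cells. The enzyme oxidises polycyclic aromatic hydrocarbons, and its gene is the classic target of the ligand-activated receptor AHR, which binds DNA with ARNT at the core motif GCGTG. CYP1A1 lies on the minus strand of chromosome 15 of hg38, from 74719542 to 74725536. In PLC it had 7958 and 1176 reads, or 78.2 and 21.8 FPKM, a ratio of 0.280 (0.262 to 0.296) and thus 3.58-fold lower at 25 mM. In Huh7 cells it had 1593 and 2846 reads, or 22.2 and 28.1 FPKM, a ratio of 1.27 (1.19 to 1.35). The library of PLC cells at 5 mM was the highest of the 4. At 25 mM the Huh7 level was 1.29 times the PLC level (1.21 to 1.38). The ratio in Huh7 cells divided by that in PLC cells was 4.55 (4.17 to 4.97, counting error only), and a replicated test of this difference could not be made with 1 library per condition.

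TIPARP, an AHR target gene whose product feeds back on AHR, is no P450 but was on the list of regulators. Its level was 12.7 and 11.2 FPKM in Huh7 against 23.6 and 7.37 FPKM in PLC. The ratio was 0.885 (0.822 to 0.952) in Huh7 and 0.316 (0.286 to 0.342) in PLC cells, so the library of PLC cells at 5 mM was the highest for both genes. Other genes of the pathway on that list lay between the limits where they had enough reads. AHR had ratios of 0.734 and 0.880 in Huh7 and PLC cells, ARNT had 0.812 and 0.839, and the repressor AHRR had 97 and 45 reads in PLC cells, a ratio of 0.896 (0.600 to 1.26). CYP1B1, a further target, had 10 and 2 reads in PLC, under the minimum for a ratio.

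The promoters of CYP1A1 and TIPARP, a pair of AHR targets called lower at 25 mM in PLC cells, are shown from 250 bases before to 50 bases after the start of transcription, from RefSeq on GRCh38.p14. Capitals mark GCGTG on either strand, which reads as CACGC where it lies on the other strand. The CYP1A1 window is chr15:74725479-74725778 on the minus strand and the first of the 3 TIPARP windows is chr3:156674340-156674639 on the plus strand.
CYP1A1: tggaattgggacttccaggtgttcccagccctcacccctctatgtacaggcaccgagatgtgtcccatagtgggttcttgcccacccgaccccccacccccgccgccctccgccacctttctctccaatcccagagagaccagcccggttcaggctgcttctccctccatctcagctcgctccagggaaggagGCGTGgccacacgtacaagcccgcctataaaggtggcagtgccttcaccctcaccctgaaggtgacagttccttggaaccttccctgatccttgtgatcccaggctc
TIPARP: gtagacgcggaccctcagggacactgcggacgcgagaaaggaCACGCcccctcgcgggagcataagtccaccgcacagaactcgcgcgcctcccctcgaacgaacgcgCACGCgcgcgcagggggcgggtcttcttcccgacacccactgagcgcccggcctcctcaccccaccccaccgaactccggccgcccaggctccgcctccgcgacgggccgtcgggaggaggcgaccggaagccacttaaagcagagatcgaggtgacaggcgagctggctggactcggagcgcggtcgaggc
The CYP1A1 window holds 1 match, from 57 to 53 bases before the start. The TIPARP window holds 2 matches on the other strand, from 208 to 204 and from 142 to 138 bases before the start, and the other windows of TIPARP hold 0. Bases outside these windows were not searched, and a link between matches and the glucose ratio was not tested. The AHRR windows hold 1 and 2 matches, and its ratio was not past the limits, while CYP4F3, which was called lower in PLC, has 0 matches. CYP1A2 and CYP2S1 also have 0, and CYP2S1 had a ratio of 1.32 (1.21 to 1.45) in PLC cells. The motif occurs in 36.5% of 35116 promoter windows of the same length and in 12 of the 51 windows (23.5%) of the 38 P450 genes that were found in the table, so a match is a description of the sequence alone. No promoter of CYP1B1 or CYP24A1 was found in the table.

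CYP4F3 was lower at 25 mM in both lines. It had 1869 and 1993 reads in Huh7 cells, a ratio of 0.759 (0.711 to 0.807), and 2902 and 487 reads in PLC cells, a ratio of 0.321 (0.287 to 0.349), which is 3.12-fold lower. Its neighbour CYP4F12 had ratios of 0.773 (0.714 to 0.832) in Huh7 and 1.15 (0.819 to 1.69) in PLC cells. CYP4F11 had a ratio of 1.04 (0.714 to 1.51) in PLC cells. Of the 3 genes, only CYP4F3 in PLC cells was past the limits.

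Among the drug-metabolising genes the called ratios rested on fewer reads. CYP2B6 had 1.97 and 1.03 FPKM in Huh7, a ratio of 0.548 (0.409 to 0.672). CYP2D7 had a ratio of 0.648 (0.417 to 0.874) in Huh7, and CYP2C18 one of 1.80 (1.32 to 2.77) with 42 and 112 reads. In PLC cells CYP2D6 had 64 and 60 reads, a ratio of 1.69 (1.22 to 2.56), while in Huh7 cells its ratio was 0.752 (0.477 to 1.10). CYP3A7, the fetal liver form of family 3, had 11 and 22 reads in PLC cells (ratio 2.41). CYP2E1 had 112 and 26 reads in PLC cells, a ratio of 0.554 (0.274 to 0.676), and CYP2A6 had 42 and 13, a ratio of 0.641 whose interval (0.288 to 1.11) includes 1. CYP3A5 lay just inside the limit in PLC cells with 1.48 (1.33 to 1.69), against 0.852 (0.768 to 0.937) in Huh7.

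Of the genes kept by 1 line alone, CYP24A1 had a ratio of 1.0 (0.932 to 1.07) in PLC cells, where TMM scaling gave 0.920. In Huh7 cells its 30 and 9 reads gave 0.387 (0.0890 to 0.461). CYP39A1 had 1.41 (1.28 to 1.56), CYP2J2 had 1.26, CYP27A1 had 1.06 (0.894 to 1.27) and CYP26B1 had 1.07 (0.984 to 1.16) in Huh7. In PLC cells CYP26B1 had 0.715 (0.446 to 0.993), and 0.667 with TMM scaling, just past the limit. Among genes kept by both lines, CYP2S1 had 1.32 (1.21 to 1.45) and CYP2R1 had 1.29 (1.16 to 1.44) in PLC cells. CYP19A1 had similar ratios in both lines, 0.774 (0.622 to 0.917) and 0.771 (0.571 to 0.962), and CYP20A1 had 0.922 (0.870 to 0.975) and 0.760 (0.700 to 0.817).

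A change with glucose shared by both lines was tested in the same edgeR fit, with the cell line as a block. None of the 35 members tested had an adjusted p-value under 0.05 with edgeR, DESeq2 or limma under the filter on low counts, and 1, 1 and 3 of them had an unadjusted p-value under 0.05. Among all 23217 genes, 0.0646% were called higher and 0.314% lower at 25 mM. On simulated counts the fit recovered 16% of 2-fold shared changes, so a missing call does not exclude such a change. CYP4F3 had the smallest p-value of the members, with a shared log2 fold change of -1.10 ± 0.30 (edgeR, unadjusted p = 0.00297, adjusted p = 0.170). Without the filter on low counts it was called, at a log2 fold change of -1.12. CYP1A1, with ratios on opposite sides of 1, had a shared log2 fold change of -0.83 ± 0.41 (edgeR, adjusted p = 0.634).

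Among 37 partners and regulators of P450 enzymes, 34 had enough reads for a ratio in Huh7, and 1 was called higher and 2 lower, beside the 10.9% and 8.20% of all genes. In PLC 6 of 32 were called higher and 4 lower, beside 19.8% and 15.1%, so these counts are no result about the list. POR, the reductase that feeds electrons to the enzymes of the endoplasmic reticulum, stood between 20.3 and 22.9 FPKM in all 4 libraries, with ratios of 1.04 and 0.998. FDX1, the electron donor of mitochondrial enzymes such as CYP24A1 and CYP27A1, had 7.93 and 7.64 FPKM in Huh7 against 19.7 and 20.6 in PLC, a line difference of -1.37 ± 0.24 (edgeR, adjusted p = 5.11e-04). The cytochrome b5 gene CYB5B was higher at 25 mM in PLC, with 39.1 and 81.0 FPKM and a ratio of 2.07 (2.01 to 2.14), and a ratio of 1.0 in Huh7. Between the lines, CYB5A and PGRMC1 were higher in Huh7 and CYB5B and FDX1 in PLC. Of the 8 heme synthesis genes, CPOX (1.51) was called higher in Huh7 cells, and CPOX (1.61), ALAD (1.85) and UROS (2.0) in PLC cells. These 3 were also higher in Huh7 than in PLC cells, while ALAS1 was higher in PLC. ALAS1, which controls the rate of heme synthesis, had 0.863 (0.807 to 0.923) and 1.21 (1.15 to 1.28).

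Of the 21 receptors and liver factors that control P450 genes, 8 were higher in Huh7 and 4 in PLC, beside 21.8% and 21.1% of all genes tested, and 1 was lower at 25 mM in the shared test, beside 0.314%. NR1H4, the bile acid receptor FXR, had 5397 and 9247 reads in Huh7 against 5 and 0 in PLC, and the liver factor FOXA2 had 2237 and 3022 against 4 and 0. CEBPA, a factor of mature hepatocytes, had 68.5 and 75.9 FPKM in Huh7 against 3.54 and 3.02 in PLC, a line difference of 4.45 ± 0.27 (edgeR, adjusted p = 3.39e-08). HNF4A, which many P450 genes depend on, did not pass, with 29.0 and 31.1 FPKM in Huh7 against 35.0 and 38.5 in PLC. Those higher in Huh7 included CEBPA, FOXA1, FOXA2, FOXA3, NR1H4, NR1I3 and RXRA, and those higher in PLC were AHRR, ARNT, NR0B2 and PPARA. The PXR gene NR1I2 had between 4 and 24 reads. The CAR gene NR1I3 was called lower at 25 mM in both lines, with ratios of 0.588 (0.405 to 0.766) and 0.478 (0.200 to 0.727). It had an unadjusted p = 0.0311 and an adjusted p = 0.495 in edgeR's test of a shared change. CEBPB was the only regulator that passed that test, with 64.7 and 29.3 FPKM in Huh7 against 113 and 37.7 in PLC (shared log2 fold change -1.44 ± 0.23; edgeR, adjusted p = 0.0192). NR3C1, the glucocorticoid receptor gene, was lower at 25 mM in PLC cells (0.570), and FOXA1 (1.85) and FOXA3 (1.62) were higher there.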

How the data were processed

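RNA of Huh7 and PLC cells at 2 glucose concentrations was depleted of rRNA and made into directional libraries by the authors. They deposited the count of reads per gene, without normalization. HISAT2, featureCounts and hg38 are named in the submitters' processing notes, and versions, annotation release, use of strand and treatment of reads with several positions are not given in the sources used here. Samples were grouped by their titles, and table columns by their names.

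Of 59657 data lines, 59652 were used, and 5 broken lines without values in their own columns were left out. FPKM was calculated from counts, deposited gene lengths and library totals. The count model was fitted over all 23217 genes that passed filterByExpr, with cell line and glucose as terms, TMM normalization, the quasi-likelihood test and Benjamini-Hochberg adjustment (edgeR 4.0.16, R 4.3.3), and DESeq2 1.42.0 and limma 3.58.1 were alternatives. Intervals came from scipy 1.17.1. Ratios between lines of the glucose ratio carry conditional exact intervals. PCR duplicates are not known, so intervals cover counting error only.

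Every member with at least 20 reads in a library is named with values, all others by name or highest count, and regulators where a ratio or test passed, with POR, AHR, NR1I2, NR1I3 and HNF4A always. DESeq2 calls beside single genes and the promoter and shared-window searches fall outside that rule. Single results of a few genes are not reported here and are not in the plots by gene, while counts over all genes include them. Members and lists were chosen with earlier results of these data known. The fit was tested on simulated counts of 23217 genes, with a change put into 200 of them. It recovered 16% of 2-fold and 72% of 4-fold shared glucose changes. For line differences it recovered 14.5% and 72.5%, so most 2-fold changes were missed. The cell lines and glucose levels are no replicate cultures. With both as terms, the 1 residual degree of freedom is the difference of the glucose response between the lines. The p-values weigh a change against that difference, with information shared over genes, and not against a spread between cultures.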

Additional observations from a re-analysis of the deposited data

Results flagged for a closer look

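CYP1A1 and CYP3A5 had glucose ratios on opposite sides of 1 in the lines, with counting intervals that both exclude 1. For CYP1A1 the ratio of 25 mM to 5 mM was 1.27 in Huh7 against 0.280 in PLC, and with TMM scaling 1.23 and 0.257. For CYP3A5 it was 0.852 and 1.48, and with TMM scaling 0.830 and 1.36. Neither ratio of CYP3A5 passed the limits of 0.67 and 1.5. With 1 library per condition, no test of the difference was run.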

How the results depend on the processing

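The number of P450 genes kept in PLC cells, 14, was 9 with FPKM over 1 in place of 0.5. The single gene called higher in Huh7 cells became 2 with nothing added to FPKM and 0 with 1 added or with ratios over 2, and the 3 called lower became 0 with 1 added and 1 with ratios under 0.5. In PLC cells the 3 called higher became 5 with nothing added, 0 with 1 added, and 1 with at least 20 reads in both libraries, at least 50 reads in the higher library, or FPKM over 0.5 in a library. The 4 called lower became 5 with TMM or DESeq2 scaling, 2 with 1 added and 2 with ratios under 0.5. For the shared change the count of 0 members became 1 (CYP4F3) without the filter on low counts. Between the lines the 17 called members became 8 with at least 10 counts in every library, which left 19 members to test. In Huh7 cells CPOX no longer passed the limit, so that 0 regulators or partners were called higher there with TMM or DESeq2 scaling. No called ratio or fold change of a single gene turned its direction under these alternatives. Leaving out a replicate was not possible with 1 library per condition. No paired analysis was possible because the labels give no replicate numbers, and the cell line or the glucose level served as the block. Without the block the shared change gave 0 and the lines 17 called members.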

Other observations

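Antisense and overlapping genes beside P450 genes had reads of their own. CYP2U1-AS1, which shares 163 exon bases with CYP2U1 on the opposite strand, had 7 and 8 reads in Huh7 against 186 and 58 in PLC. CYP2U1 had 16 and 34 reads in Huh7 against 79 and 64 in PLC. CYP1B1-AS1 had 8 and 35 reads in Huh7 against 2 and 3 in PLC, beside 20 and 34, and 10 and 2, on CYP1B1. Without a stated use of strand, reads in the shared bases cannot be told apart. CYP17A1, the steroid 17-alpha-hydroxylase, shares 41.9% of its exon bases with WBP1L on the opposite strand, and had 0 and 4 reads in Huh7 against 0 in PLC, while WBP1L had between 753 and 1188 reads.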
